A study of Sus scrofa with 48 samples.

Results

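Phosphocreatine and adenylate buffer genes of pig longissimus muscle are described here over 4 groups of pigs. The genes were looked up by name on the array, as CKM, CKB, CKMT2, AK1, AK3, AMPD1, AMPD3, GATM and GAMT. A spot was taken where its gene name was one of these symbols or its description held the symbol in round brackets, and a probe was kept when well above background on at least 12 of 48 arrays. This gave 38 probes of 6 genes, out of 60305 probes and 11428 genes with a current symbol on the array. CKM had 11 probes, CKB had 1, CKMT2 had 12, AK1 had 1, AMPD1 had 5 and GATM had 8, and all 38 probes were kept. No spot carried the names AK3, AMPD3 or GAMT, so these 3 genes have no value under the rule.

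The pigs were Large White barrows of 2 lines, bred in opposite directions on residual feed intake (RFI), the feed eaten beyond what growth and maintenance needs predict, so that low RFI pigs are the more efficient ones. Pigs of each line received feed ad libitum, either a diet high in fat and fiber (HF) or a diet low in both (LF), with 12 pigs in each of the 4 groups. Total RNA of each muscle sample was labelled with Cy3 and hybridised on its own one-colour array. Line is confounded with all else that differs between the 2 selected populations, and a muscle sample holds other cells beside fibres, so fewer cells of a type and less RNA per cell cannot be told apart.

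Muscle keeps its ATP level steady through coupled reactions. Creatine kinases pass phosphate between ATP and the phosphocreatine store, adenylate kinases turn a pair of ADP molecules into ATP and AMP, and AMP deaminases remove AMP as IMP and ammonia. Creatine itself is made by GATM, which forms guanidinoacetate, mainly in the kidney and pancreas, and then by GAMT, which methylates it, mainly in the liver. Muscle takes most of its creatine from the blood.

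The array reads each gene through probes of 60 bases, and several probes of a gene often overlap. A few of them are shown, 5′ to 3′ and as the array files give them, since the results differ between probes of a gene. The 2 AK1 probes share 23 bases and the last 2 CKM probes shown share 21, and capitals mark the shared stretch. The other probes shown share no such stretch and are in lower case. The number after the gene is the start in the transcript as the files give it, where they give one.
CKM A_72_P530167, 540: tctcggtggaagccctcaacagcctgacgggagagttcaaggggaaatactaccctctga
CKM A_72_P602644, 849: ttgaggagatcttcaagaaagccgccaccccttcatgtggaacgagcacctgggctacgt
CKM A_72_P650270, 1128: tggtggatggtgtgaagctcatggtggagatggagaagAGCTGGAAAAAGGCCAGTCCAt
CKM A_72_P590234, 1157: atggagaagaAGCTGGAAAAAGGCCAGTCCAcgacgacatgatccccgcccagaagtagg
AK1 O14577: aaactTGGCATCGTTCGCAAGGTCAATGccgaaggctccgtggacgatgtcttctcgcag
AK1 A_72_P313558, 557: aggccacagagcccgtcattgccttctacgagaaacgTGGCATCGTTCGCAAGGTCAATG
CKMT2 A_72_P530073, 755: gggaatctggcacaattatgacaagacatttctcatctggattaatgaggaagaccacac
AMPD1 A_72_P208487, 1983: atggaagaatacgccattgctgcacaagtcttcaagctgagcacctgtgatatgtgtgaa
GATM A_72_P560189, 969: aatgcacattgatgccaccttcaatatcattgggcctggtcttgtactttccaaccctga
The 4 CKM probes shown are all among those called lower in high RFI pigs, and the GATM probe shown is the one with the smallest difference of its gene. Counting probes that share at least 15 bases as 1 stretch, the 11 CKM probes read 7 stretches, the 12 CKMT2 probes read 5, the 5 AMPD1 probes read 3 and the 8 GATM probes read 5. Probes of a gene are therefore not independent readings.

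Each of the 6 slides carried 8 arrays, 2 per group, and 3 slides were scanned on each of 2 days. Per array, 59.2% to 74.2% of probes were well above background. The median processed signal of an array ranged from 52.7 to 107.9. The array that correlated least with the others, with a mean r of 0.975, came from the high RFI HF group and also had the highest median signal. Of the 10 defining markers of muscle fibres, all were measured, and the log2 of their summed signal ranged from 12.78 to 13.40 over all pigs.

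All values are log2 of the processed signal of a spot minus the mean over the 42125 tested probes of its array, called the level here. Levels are compared between pigs for 1 probe at a time, since probes bind with different strength. A gene is read by its probe with the highest mean level, called the main probe, with its other probes beside it. Differences between groups were tested with limma across all tested probes, and a probe was called where its adjusted p was under 0.05.

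The genes of this energy buffer did not move as one between the lines. GATM was 1.36-fold higher in high RFI pigs at its main probe, which was measured in every pig and passed the test. Its other 7 probes pointed the same way, but some overlap, and A_72_P585161 met the filter only through high RFI arrays. With a background correction that draws dim signals together, the 8 GATM differences ran from -0.04 to 0.21 on the log2 scale, with 2 called. CKM and AK1, of the cytosolic buffer, were lower by small amounts, 0.09 to 0.19 on the log2 scale, and part of their probes passed the test. Other probes with bright spots were also mostly lower in high RFI pigs, and the CKM and AK1 calls did not hold under quantile normalization. No probe of CKMT2, CKB or AMPD1 passed the test of the lines, and no probe of any of the 6 genes passed the test of the diets.

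Between the lines, 13 of the 38 probes (34.2%) were called, against 16.4% of all tested probes. Of these, 6 were higher in the high RFI line, all of GATM, against 6.57% of all tested probes called higher, and 1 of the 6, A_72_P585161, met the filter on dim probes only through high RFI arrays. The other 7 were lower, 6 of CKM and 1 of AK1, against 9.85% of all tested probes called lower. The median line difference was -0.05 over the 38 probes and -0.03 over all tested probes.

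**Figure D1:**
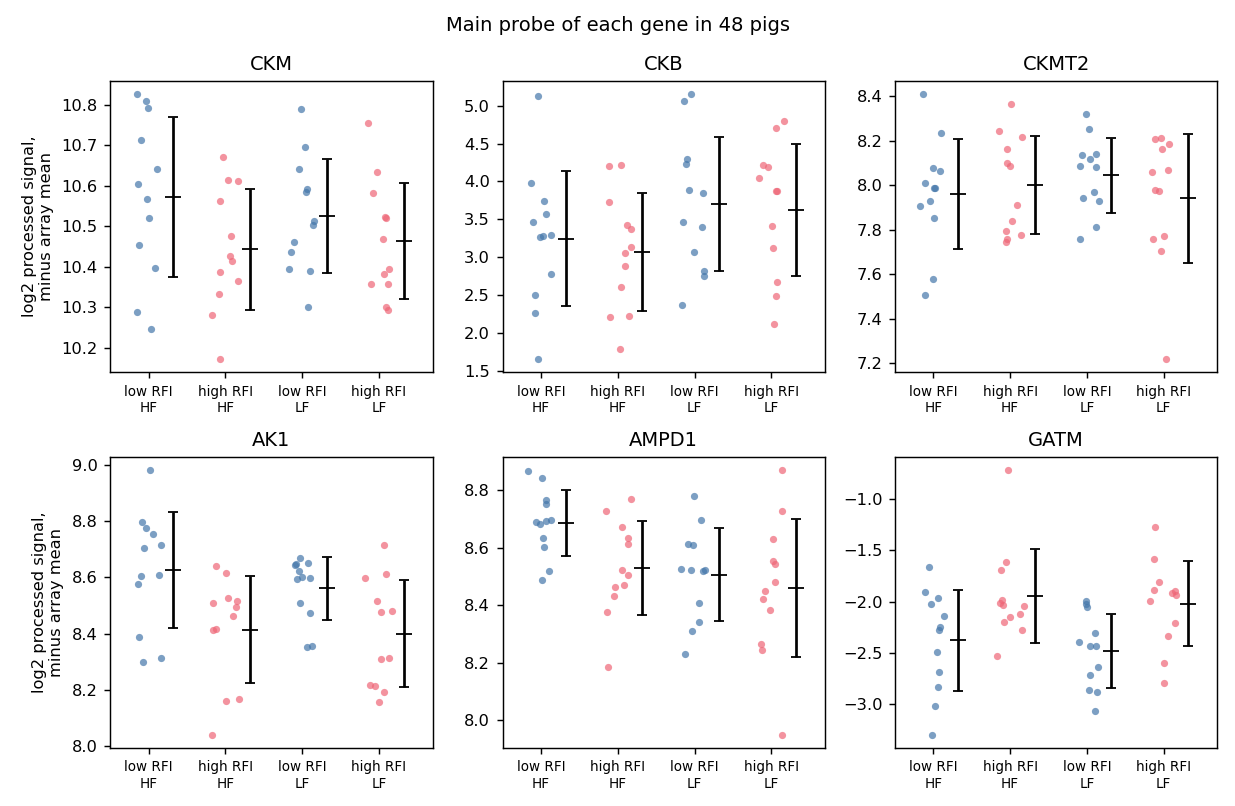
Level (log2 processed signal minus the mean of the array) of the main probe of each of 6 genes, 1 point per pig, in 4 groups of 12, with the mean and SD in black and low RFI pigs in blue, high RFI pigs in red. GATM points sit higher in both high RFI groups, AK1 points lower, and CKB points spread over more than 3 log2 units.

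GATM makes guanidinoacetate, the precursor of creatine. Its main probe, O9294, ranged from -3.29 through a median of -2.26 to -1.66 in the low RFI HF group, and from -2.53 through -2.04 to -0.72 in the high RFI HF group. It ranged from -3.07 through -2.43 to -1.99 in the low RFI LF group, and from -2.79 through -1.93 to -1.27 in the high RFI LF group. The lines overlapped on both diets, with high RFI medians above low RFI medians on each.

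The line mean of this probe was -2.43 ± 0.42 (SD, n = 24) in low RFI pigs and -1.98 ± 0.43 (SD, n = 24) in high RFI pigs. The difference of 0.45 (SE 0.12) had a limma adjusted p of 0.0095, which is a 1.36-fold higher signal with a 95% interval from 1.15 to 1.62. Of the 24 high RFI pigs, 21 lay above the low RFI mean. The difference was higher in high RFI pigs on 6 of 6 slides, from 0.09 to 0.89, and was 0.42 and 0.47 on the 2 scan days. Within the HF diet the lines differed by 0.43, and within the LF diet by 0.46.

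The other 7 GATM probes were also higher in high RFI pigs, and leaving out A_72_P585161 the differences ran from 0.07 to 0.53. Those called were O9294, A_72_P322238, A_72_P440486, A_72_P626054, A_72_P567749 and, with the limit given next, A_72_P585161. A_72_P583621 missed the threshold with a difference of 0.43 (limma adjusted p = 0.0851). A_72_P560189, whose sequence is given above and which starts nearest the 5′ end of those with a stated start, had a difference of 0.07 (SE 0.18, limma adjusted p = 0.836). The probes of this gene thus disagreed in size.

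GATM spots were dim. The processed signal of the main probe ran from 29.4 to 181.7 with a median of 70.0, and it was the only GATM probe well above background on all 48 arrays, while the 30 probes of the other 5 genes all were. A_72_P560189 was well above background on 22 arrays and A_72_P585161 on 19. A_72_P585161 was well above background in 9 high RFI HF and 7 high RFI LF pigs, but in 0 low RFI HF and 3 low RFI LF pigs of 12 each. It met the filter only through the line where it was high, so its call is no support for the difference. It was called within the HF diet (limma adjusted p = 0.0081), where 6.39% of all tested probes were, and no other of the 38 probes was. The low RFI level is a bound there, and set against it the signal was 1.44-fold higher in the high RFI HF group. Of the 12 high RFI HF arrays, 9 were well above background, so this fold is no firm minimum and no support either. This fold sets the high RFI mean against, in each low RFI array, the higher of the probe's own level and the lowest level of any probe well above background.

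The size of the GATM difference moved with the processing. With normexp correction and an offset of 50, which draws dim signals together, the 8 differences ran from -0.04 to 0.21, the main probe differed by 0.21 and 2 of the 8 probes were called. The deposited table rests on the median signal of a spot, not the processed signal, and held 6 of the 8. There they ran from 0.13 to 0.29, the main probe differed by 0.29 and 4 were called. With quantile normalization they ran from 0.04 to 0.91 and 5 were called. Only the main probe was well above background on all 48 arrays, and with that filter it was still called, with a difference of 0.46.

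Over 48 arrays with group means removed, 9508 genes were compared with its main probe. The 2 with the highest r were DAB2 (r = 0.758, rho = 0.689), an endocytic adaptor, and ARPC5 (r = 0.752, rho = 0.657), a subunit of the actin-nucleating Arp2/3 complex. DAB2 was itself higher in high RFI pigs by 0.27 (limma adjusted p = 0.0414) and ARPC5 by 0.21 (limma adjusted p = 0.0423). Beside the GATM difference, 2 of 6 leukocyte markers were called higher in high RFI pigs, CSF1R, the macrophage growth factor receptor, by 0.94 (SE 0.21) and CD14 by 0.30 (SE 0.08), where 6.57% of all tested probes were. With normexp correction CSF1R differed by 0.29 and was still called. PTPRC, the general leukocyte marker, differed by -0.03 (limma adjusted p = 0.703) and CD3E, of T cells, by -0.14 (limma adjusted p = 0.417). Of 6 fibroblast markers, 2 were called higher, COL1A1 by 0.37 (SE 0.11) and COL1A2 by 0.32 (SE 0.10), against the same 6.57%. DCN differed by -0.06 (limma adjusted p = 0.530) and LUM by -0.02 (limma adjusted p = 0.804). The log2 summed signal of the leukocyte markers ranged from 4.58 to 4.92 in low RFI pigs and from 4.49 to 5.23 in high RFI pigs, and that of the fibroblast markers from 7.76 to 8.69 and from 7.66 to 8.71. Of the 4 liver markers that passed the filter, 0 were called, with a smallest limma adjusted p of 0.180, and 0 had an unadjusted p under 0.05. Adipocyte, endothelial and red blood cell lists each had 1 marker called higher, FABP4 by 0.32 (SE 0.11), TEK by 0.24 (SE 0.09) and SLC4A1 by 0.26 (SE 0.09), while 2 of 6 adipocyte, 2 of 6 endothelial and 3 of 4 red blood cell markers had differences below 0. No kidney or pancreas list was examined. The part of these cells in the GATM difference was not tested.

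**Figure D2:**
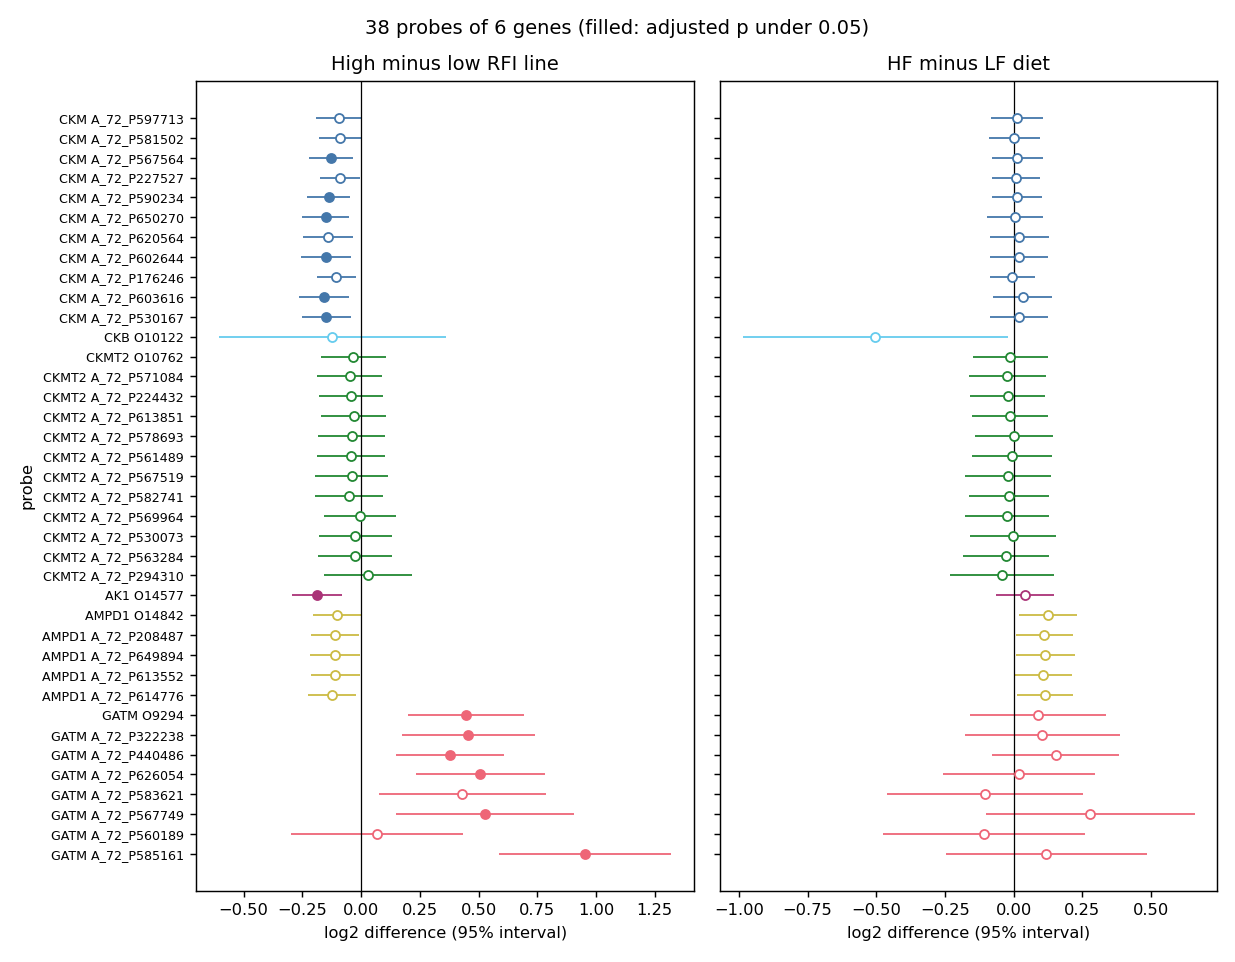
Difference between the lines (left) and between the diets (right) on the log2 scale with 95% intervals for each of 38 probes, coloured by gene, with filled points where the adjusted p is under 0.05. All 8 GATM points lie above 0, the lowest row (A_72_P585161) against a low RFI level that is mostly background, and all 11 CKM points below 0 on the left, and no point is filled on the right.

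CKM, the cytosolic creatine kinase of muscle, regenerates ATP from phosphocreatine at the myofibrils. Its main probe, A_72_P597713, ranged from 10.25 through a median of 10.59 to 10.83 in the low RFI HF group, and from 10.17 through 10.42 to 10.67 in the high RFI HF group. It ranged from 10.30 through 10.51 to 10.79 in the low RFI LF group, and from 10.29 through 10.43 to 10.76 in the high RFI LF group. The groups overlapped over most of their range, and the spread within a group was narrow.

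The line means of this probe were 10.55 ± 0.17 (SD, n = 24) and 10.45 ± 0.14 (SD, n = 24), and the difference of -0.09 (SE 0.05) missed the threshold with a limma adjusted p of 0.166. It was lower in high RFI pigs on 6 of 6 slides, from -0.21 to -0.01. All 11 CKM probes were lower in high RFI pigs, with differences from -0.16 to -0.09 and a median of -0.14, and 6 were called. The 6 called probes start between positions 540 and 1163 of the transcript, together with 1 uncalled probe at 968 (limma adjusted p = 0.0583). The 4 probes that start at 1344 or later were not called, with differences of -0.11 to -0.09. With slide as a block 8 of the 11 were called, adding the probes at 968 (limma adjusted p = 0.0273) and 1515 (limma adjusted p = 0.0363), so no pattern along the transcript is read from these calls.

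AK1, the cytosolic adenylate kinase, was read by 1 probe under the rule, O14577. It ranged from 8.30 through a median of 8.66 to 8.98 in the low RFI HF group, and from 8.04 through 8.48 to 8.64 in the high RFI HF group. It ranged from 8.35 through 8.60 to 8.67 in the low RFI LF group, and from 8.15 through 8.39 to 8.71 in the high RFI LF group. Both high RFI medians lay below both low RFI medians, with overlap on each diet.

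The line means of AK1 were 8.59 ± 0.17 (SD, n = 24) and 8.41 ± 0.19 (SD, n = 24). The difference of -0.19 (SE 0.05) passed the test with a limma adjusted p of 0.0113, and 19 of 24 low RFI pigs lay above the high RFI mean. It was lower in high RFI pigs on 5 of 6 slides, from -0.41 to 0.05. A further probe outside the rule, A_72_P313558, which RefSeq's gene table ties to AK1 through its transcript, had a difference of -0.15 (SE 0.05, limma adjusted p = 0.0274). The 2 probes share the 23 bases shown above in capitals, so they are not separate readings.

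Other bright probes were lower in high RFI pigs too. The 714 other tested probes with a mean level at or above that of the CKMT2 main probe had a median line difference of -0.11 with quartiles of -0.15 and -0.08, 97.8% of them were lower in high RFI pigs and 42.2% were called lower. The median CKM difference of -0.14 lay within these quartiles, and the AK1 difference of -0.19 lay below them. With quantile normalization, which gives all arrays the same distribution of values, their median line difference was -0.003 and 1.82% were called lower. The 11 CKM differences then ran from -0.05 to 0.02, with 2 of them above 0, AK1 differed by -0.07 (limma adjusted p = 0.334), and 0 of these 12 probes were called by limma, the smallest adjusted p being 0.334. Without the 1 array least like the others, 2 of the 11 CKM probes were called in place of 6, and AK1 was still called with -0.17. The CKM and AK1 calls depended on how arrays were scaled to each other. GATM had 6 probes called with mean centring, among them A_72_P585161, whose call is no support. It had 5 called with quantile normalization and 2 with normexp correction, so its calls also depended on processing.

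**Figure D3:**
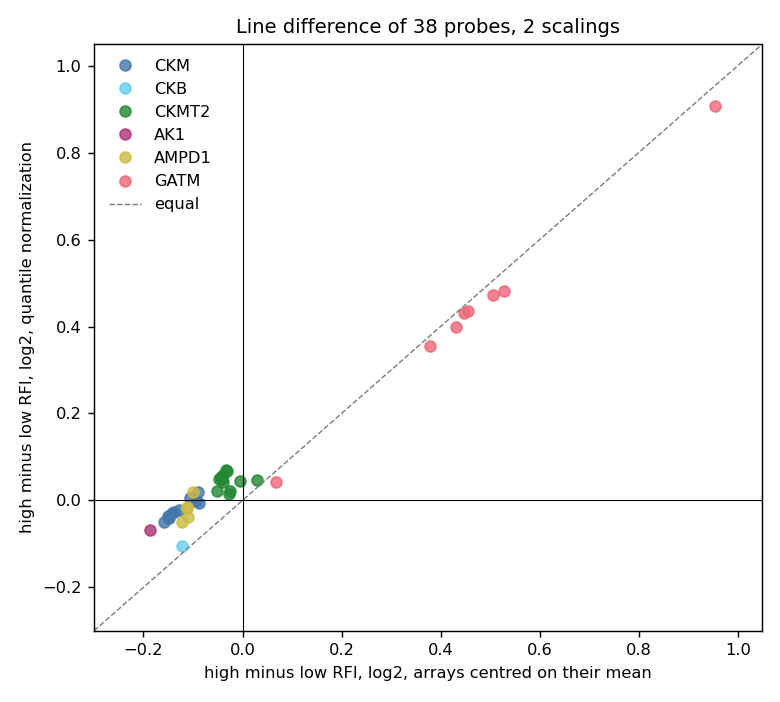
Line difference (high minus low RFI, log2) of each of 38 probes with arrays centred on their mean (horizontal axis) and after quantile normalization (vertical axis), coloured by gene, with a dashed line where both are equal. GATM points lie near the dashed line, while CKM, AK1 and AMPD1 points move up towards 0.

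CKMT2, the sarcomeric mitochondrial creatine kinase, charges creatine with phosphate at the mitochondrial inner membrane. Its main probe, O10762, ranged from 7.51 through a median of 7.99 to 8.41 in the low RFI HF group and from 7.74 through 8.00 to 8.37 in the high RFI HF group. It ranged from 7.76 through 8.08 to 8.32 in the low RFI LF group and from 7.22 through 8.02 to 8.21 in the high RFI LF group. The 4 medians lay close together and all groups overlapped.

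The line difference of CKMT2 was -0.03 (SE 0.07, limma adjusted p = 0.783), with a 95% interval from -0.17 to 0.10. None of its 12 probes was called, 0 had an unadjusted p under 0.05, the variance analysis for line alone also called 0, and their differences ran from -0.05 to 0.03. With quantile normalization all 12 were above 0, from 0.02 to 0.07, and 0 were called, so no direction is given. High RFI pigs were above low RFI pigs on 3 of 6 slides.

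CKB, the brain-type cytosolic creatine kinase, is known from nerve and smooth muscle and was read by 1 probe, O10122. It ranged from 1.66 through a median of 3.29 to 5.13 in the low RFI HF group and from 1.80 through 3.09 to 4.22 in the high RFI HF group. It ranged from 2.38 through 3.66 to 5.15 in the low RFI LF group and from 2.12 through 3.88 to 4.80 in the high RFI LF group. In processed signal this is a range from 900 to 11581 over all pigs, the widest in ratio of the 6 main probes.

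The line difference of CKB was -0.12 (SE 0.24, limma adjusted p = 0.770), with a 95% interval from -0.60 to 0.36. Markers of smooth muscle and of nerve were measured beside it. Of 5 smooth muscle markers, 0 were called between the lines, with a smallest limma adjusted p of 0.112, and 1 had an unadjusted p under 0.05. Of 6 nerve and glia markers, all were lower in high RFI pigs. Of these, 2 were called, where 9.85% of all tested probes were called lower. They were S100B, by -0.34 (SE 0.10), and SOX10, by -0.14 (SE 0.05), the latter lost with quantile normalization. The genes most like CKB over pigs were XBP1 (r = 0.669), a factor of the unfolded protein response, and RPL7L1 (r = 0.626).

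AMPD1, the AMP deaminase of skeletal muscle, opens the purine nucleotide cycle. Its main probe, O14842, ranged from 8.49 through a median of 8.69 to 8.87 in the low RFI HF group, and from 8.18 through 8.51 to 8.77 in the high RFI HF group. It ranged from 8.23 through 8.52 to 8.78 in the low RFI LF group, and from 7.95 through 8.47 to 8.87 in the high RFI LF group. The low RFI HF group had the highest median, and the other 3 groups were close to each other.

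The line difference of AMPD1 was -0.10 (SE 0.05, limma adjusted p = 0.176). All 5 probes were lower in high RFI pigs, from -0.12 to -0.10, with 0 called, 4 at an unadjusted p under 0.05 and 0 called by the variance analysis for line alone. A_72_P614776 was called with slide as a block (limma adjusted p = 0.0318) and with scan day as a block (limma adjusted p = 0.0441), and with quantile normalization the 5 differences ran from -0.05 to 0.02. The main probe differed by -0.004 on the first scan day and by -0.20 on the second. The gene most like AMPD1 over pigs was PRKAA2 (r = 0.80), the catalytic subunit of the AMP-activated kinase that prevails in muscle, followed by FAM53C (r = 0.745).

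AK3, which regenerates GDP and ADP in the mitochondrial matrix from GTP and AMP, had no probe under the rule. The array holds 5 probes named AK3L1 that RefSeq's gene table ties to AK3 through their transcript, and all 5 were well above background on 48 arrays. They were higher in high RFI pigs by 0.07 to 0.19, with 0 called and the smallest limma adjusted p at 0.0589. A_72_P499086 and A_72_P580117 were called with slide as a block (limma adjusted p = 0.0454 and 0.0415), and also with scan day as a block, quantile normalization, normexp correction, the 75th percentile, the deposited table and the filter on all arrays. Neither was called with centring on the median, no filter on dim probes, outlier spots kept or the variance analysis for line alone. Nor was either called without the array least like the others. The older name leaves it uncertain which adenylate kinase they read.

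**Figure D4:**
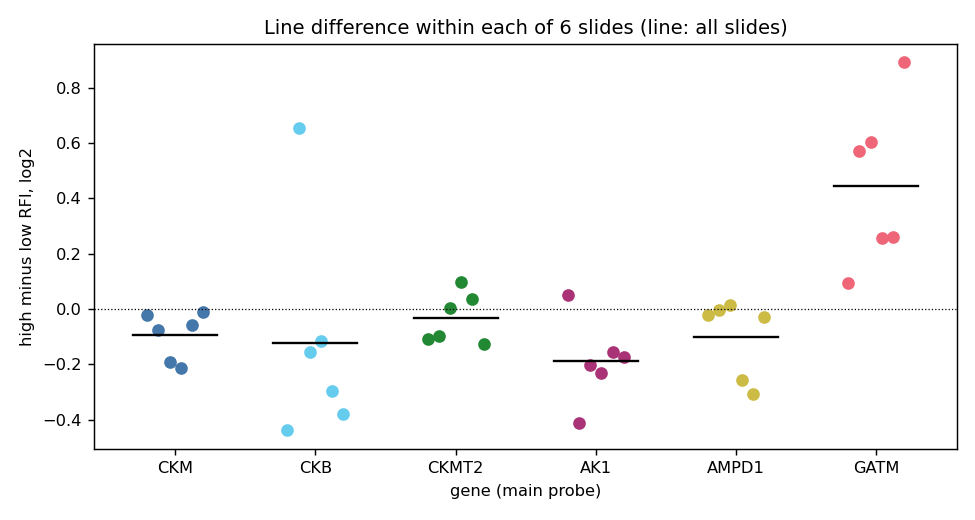
Line difference (high minus low RFI, log2) of the main probe of each of 6 genes within each of 6 slides of 8 arrays (points), with the difference over all slides as a black line. The 6 GATM points lie above 0, from 0.09 to 0.89, and the 6 CKM points below 0, from -0.21 to -0.01.

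The diets were compared to see whether fat and fiber supply moved these genes. None of the 38 probes was called between the HF and LF diets, where 0.42% of all tested probes were. At an unadjusted p under 0.05 there were 6 of the 38, and 5513 of the 42125 tested probes. These 6 were all 5 AMPD1 probes and the CKB probe. The AMPD1 main probe was at 8.61 ± 0.16 (SD, n = 24) with HF feed and at 8.48 ± 0.20 (SD, n = 24) with LF feed, a difference of 0.12 (SE 0.05, limma adjusted p = 0.270), and its 5 probes differed by 0.11 to 0.12. CKB was at 3.16 ± 0.82 (SD, n = 24) with HF feed and at 3.66 ± 0.86 (SD, n = 24) with LF feed, a difference of -0.50 (SE 0.24, limma adjusted p = 0.356) with a 95% interval from -0.99 to -0.02. The main probes of CKM, CKMT2, AK1 and GATM differed between the diets by -0.01 to 0.09.

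The interaction asks whether the lines differed unlike on the 2 diets. Of the 38 probes, 0 were called, 0 had an unadjusted p under 0.05, and 0% of all tested probes were called by limma. Within the LF diet 0 of the 38 probes were called between the lines, where 2.47% of all tested probes were. At an unadjusted p under 0.05 there were 8 of the 38, and 6940 of the 42125 tested probes. Within the HF diet 18 of the 38 had an unadjusted p under 0.05, as did 10193 of the 42125 tested probes. As the interaction was not called for any, these counts do not show a difference between the diets.

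Levels of the 6 main probes were then compared with each other over 48 arrays, with group means removed, in 15 pairs. The largest correlations were CKM with AK1 (r = 0.399, rho = 0.389), CKMT2 with AMPD1 (r = 0.389, rho = 0.422) and CKMT2 with AK1 (r = 0.385, rho = 0.376). Their adjusted permutation p was 0.0567 for each r and 0.0499, 0.0499 and 0.0506 for rho. CKM with AMPD1 (r = 0.341, rho = 0.375) had the same adjusted p of 0.0567 for r and 0.0499 for rho, so 3 of 15 pairs passed by rho and 0 by r. Without the 2 arrays farthest from the median of the first gene, r was 0.381, 0.434 and 0.411. Within the 2 scan days it was 0.418 and 0.397 for CKM with AK1, 0.168 and 0.409 for CKMT2 with AMPD1, and 0.514 and 0.450 for CKMT2 with AK1. Within the low and high RFI lines CKMT2 with AK1 gave r = 0.019 and 0.649, a difference that was not tested. With quantile normalization r of CKM with AK1 was 0.147.

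GATM ran opposite to AK1 (r = -0.358, rho = -0.281) and CKMT2 (r = -0.333, rho = -0.239), with adjusted permutation p of 0.0593 and 0.0698 for r and of 0.157 and 0.224 for rho. Neither pair passed. With slide means also removed r was -0.500 and -0.514. Without the 2 arrays farthest from the median of AK1 and of CKMT2 it was -0.416 and -0.201, and with quantile normalization -0.272 and -0.283. CKM with CKMT2, which share the creatine kinase reaction, gave r = -0.08 (rho = -0.02, adjusted permutation p = 0.768). With quantile normalization that r was -0.477, and CKM with AMPD1 went from 0.341 to -0.260, so correlations that involve CKM moved with the scaling of the arrays.

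**Figure D5:**
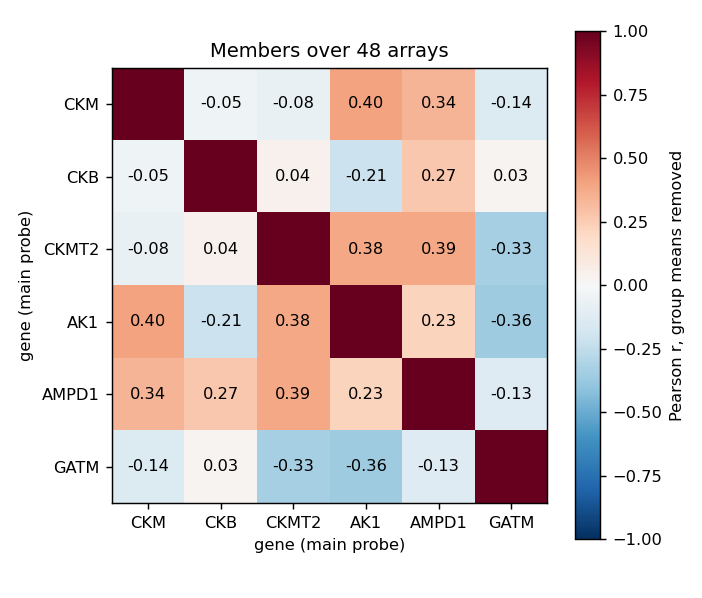
Pearson r between the main probes of 6 genes over 48 arrays after removal of the 4 group means, with blue for values below 0 and red for values above 0. AK1, CKM, CKMT2 and AMPD1 pairs run from -0.08 to 0.40, and GATM is below 0 with each of these 4.

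The 2 genes most like CKM were GAPDH (r = 0.934), a glycolytic enzyme, and MYL1 (r = 0.930), a myosin light chain. Those most like CKMT2 were SUCLA2 (r = 0.834), of the citric acid cycle, and UQCRB (r = 0.830), of respiratory complex III. AK1 was most like ORAI1 (r = 0.784), a calcium channel subunit, and COMMD1 (r = 0.760). These likenesses are over 48 arrays with group means removed, and the arrays share their scaling.

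Of 6 other genes of creatine supply that passed the filter, 0 were called higher and 1 lower, a share near the 16.4% of all tested probes. This was AHCY, which clears the by-product of the methylation step, with a difference of -0.19 (SE 0.05, limma adjusted p = 0.0037). The creatine transporter SLC6A8 differed by -0.05 (SE 0.06, limma adjusted p = 0.626). MAT2A, which makes the methyl donor, differed by 0.26 (SE 0.09, limma adjusted p = 0.0524) and was called with quantile normalization.

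Of 17 other genes of adenine nucleotide metabolism, 3 were called higher and 2 lower in high RFI pigs, a share to be read against the 16.4% of all tested probes. ADSL, which works in the purine nucleotide cycle downstream of AMPD1, was lower by -0.39 (SE 0.08, limma adjusted p = 0.0006). AMPD2, another AMP deaminase, was higher by 0.26 (SE 0.08, limma adjusted p = 0.0135), NT5E, which forms adenosine from AMP outside the cell, by 0.28 (SE 0.08, limma adjusted p = 0.0109) and HPRT1, of purine salvage, by 0.14 (SE 0.05, limma adjusted p = 0.0325). SLC29A1, a nucleoside transporter, was lower by -0.11 (SE 0.04, limma adjusted p = 0.0390), which did not hold with quantile normalization, while the other 4 calls did. AMPD2 was also the only gene of this list called between the diets, at 2.46 ± 0.28 (SD, n = 24) with HF feed and 2.80 ± 0.31 (SD, n = 24) with LF feed (limma adjusted p = 0.0320).

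Among 8 carriers and channels of the mitochondrial membranes, 1 was called, a share near the 16.4% of all tested probes. This was the adenine nucleotide carrier SLC25A4, lower by -0.13 (SE 0.05, limma adjusted p = 0.0441), and it differed by -0.01 with quantile normalization. Of 7 genes of the AMP sensor, 6 subunits of AMP-activated protein kinase and its upstream kinase STK11, 2 were called, also to be read against 16.4%. PRKAG3, the regulatory subunit of fast fibres, was lower by -0.40 (SE 0.09, limma adjusted p = 0.0027) and PRKAB1 was higher by 0.15 (SE 0.04, limma adjusted p = 0.0063), both also called with quantile normalization.

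Fibre type was measured beside CKM and AK1, which are rich in fast fibres. Of 9 fast fibre genes, all were lower in high RFI pigs and 4 were called, MYH2, TNNI2, ATP2A1 and CASQ1, by -0.19 to -0.12, where 9.85% of all tested probes and 42.2% of the bright probes described above were called lower, and with quantile normalization 0 were called and MYH1 was no longer lower. Of the 10 general fibre markers, TTN was called lower by -0.26 beside MYH2, against the same 9.85%. Unlike MYH2, TTN was still called with quantile normalization, by -0.20. Of 8 slow fibre genes, 1 was called, CASQ2, the calcium buffer of the slow sarcoplasmic reticulum, higher by 0.72 (SE 0.19, limma adjusted p = 0.0060), where 6.57% of all tested probes were called higher. Only 4 of the 8 had differences above 0, with a median of 0.004, so the list gave no common direction. The log2 summed signal of the fast fibre genes ranged from 12.90 to 13.40 in low RFI pigs and from 12.66 to 13.21 in high RFI pigs, and that of the slow fibre genes from 11.17 to 11.88 and from 10.94 to 11.90. The part of fibre type in the CKM and AK1 differences was not tested.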

How the data were processed

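Longissimus muscle of 48 barrows was measured, 12 per line and diet, with 1 array per pig. The authors deposited the intensity of each spot from Agilent Feature Extraction, with background subtracted, and also deposited log2 values of 34472 probes, which served as an alternative. These log2 values equal the log2 median signal of a spot minus a constant per array, and not the background-subtracted processed signal. Spots marked as controls or outliers were not used (no outlier fell among the 38 probes), and repeated spots were averaged. Each array's log2 signals had their mean subtracted, taken over the 42125 probes that at least 12 arrays showed well above background. Group means were fitted with limma (version 3.58.1, R version 4.3.3), and p-values were adjusted by Benjamini-Hochberg over all tested probes. Intervals are 95%. Correlations used 100000 two-sided permutations within groups, in Python 3.11.15. Steps were tested on simulated data.

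The genes named are the members by main probe, those called by line in each list (at most 5 per direction) and the 2 most like each member. MAT2A, SLC6A8, MYH1, PTPRC, CD3E, DCN, LUM and STK11 were named after their values were seen. Members and lists were chosen with earlier results of these data known. Values of other bright probes and the bound were added after seeing the data. The number of arrays limits the precision, and p-values measure the spread between pigs.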

Additional observations from a re-analysis of the deposited data

How the results depend on the processing

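Against 13 called probes of the 6 genes, 5 were called with quantile normalization and 6 with normexp correction. In these settings 14.9% and 13.6% of all tested probes were called. With no filter on dim probes 5 were called, where 6.42% of all tested probes were. With the filter on all 48 arrays it was 7 of 31, where 18.9% of all tested probes were called. Counts over all tested probes that moved by more than 1.5 times were, with no filter, 3874 by line (from 6919), 802 by line within the HF diet (from 2692), 424 by line within the LF diet (from 1040), 0 by diet (from 177) and 14 by diet within the low RFI line. The count by diet within the low RFI line, 84, was 205 on the 75th percentile, 137 with the filter on all arrays, 165 with slide as a block, 148 with scan day, 143 with the deposited table and 134 without the array least like the others. The count by diet was 92 with normexp and 359 with slide as a block, and that by line within the HF diet was 4187 with slide as a block.

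Reversed values that were not called in either setting were, with quantile normalization, the line differences of CKMT2 (0.0710) and AMPD1 (0.0186). The same held for the CKM difference within the HF diet (0.0068), the AMPD1 difference within the LF diet (0.0459) and the CKM diet difference (-0.0035). On the 75th percentile it held for the CKMT2 diet difference (0.0127). Among correlations, CKM with AMPD1 (-0.260) and AK1 with AMPD1 (-0.0072) reversed with quantile normalization. CKB with CKMT2 (-0.0476) reversed with slide means removed. CKM with AMPD1 had passed by rho in the main setting, and correlations were not tested in the other settings. AK1 was not called with no filter (adjusted p = 0.0806). The cause was not tested. Means over the probes of a gene called CKM (-0.13, limma adjusted p = 0.0424) and GATM within the HF diet (0.52). The GATM mean includes A_72_P585161, which met the filter only through high RFI arrays, so that GATM call is no support either. No paired analysis was possible because the labels give all pigs the same replicate number, which pairs none of them. Dim spots limit GATM.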
